A study of Mus musculus with 33 samples.

Results

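The 7 mouse genes Ces1d, Ankrd26, Syde2, Ano10, G630090E17Rik, Cenpf and Gpr22 were followed in cardiac myocytes of Rbfox2 knockout mice and of wild-type mice. They were chosen by their measured 3′-end levels, as genes among the most reduced in knockout (KO) myocytes at 9 weeks of age. Each was lower in every KO library than in every wild-type (WT) library. They make up 7 of the 22970 gene names in the 3′-end table. Because those values chose them, their levels are given below as a description, without a test. The myocytes were isolated from hearts of WT mice and of RBFox2 KO mice, both on a Black Swiss background, and both genotypes were measured by 3′-end RNA sequencing (MAPS) at 9 weeks. The same genotypes were measured at 5, 9 and 18 weeks by RASL-seq, in which probe pairs are ligated across splice junctions and counted separately for the short and the long form. The labels do not name the deleted part of Rbfox2, a Cre driver or the number of animals behind a library, which limits what the KO group stands for. Of 33 samples in the series, 2 were 3′-end and 6 were RASL-seq samples, each with 3 library columns in the tables, and the other samples were not analysed here.

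Rbfox2 is an RNA-binding protein of heart, muscle and brain that binds the element UGCAUG in introns and exons and so regulates alternative splicing. The 7 genes do not belong to a common pathway. Ces1d encodes a carboxylesterase of the endoplasmic reticulum, also known as triacylglycerol hydrolase, that splits stored lipid in liver and fat. Ano10 encodes a member of the anoctamin (TMEM16) family, which holds calcium-activated chloride channels and lipid scramblases, and it resides in the endoplasmic reticulum. Syde2 is named for its likeness to a synapse-defective gene of the worm. Gpr22 encodes an orphan G protein-coupled receptor found in heart and brain. Cenpf encodes a large coiled-coil protein of kinetochores and microtubules that is best known from dividing cells. Ankrd26 encodes an ankyrin repeat protein of the distal appendages of centrioles. G630090E17Rik is the table's name for Mfsd4b3-ps, which RefSeq annotates as a transcribed pseudogene of the Mfsd4b family of sugar transporter-like genes. The 7 genes lie on 7 different chromosomes, 8, 6, 3, 9, 10, 1 and 12 in the order first named.

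Promoters were available from RefSeq for 5 of the 7 genes (build GRCm38.p6), each 300 bases long from 250 bases before to 50 bases after the annotated start. Those of Ano10, Cenpf and Gpr22 are shown because their sets of motifs differ in part. Ano10 and Cenpf share GGGCGG, and Cenpf and Gpr22 share CCAAT, both explained below. Capitals mark matches, on either strand, to any of 8 short motifs. Among them are TATAAA (the core promoter element near many start sites), CCAAT (bound by NF-Y), GGGCGG (GC box) and TTTGAA (cell cycle homology element). The others are TGCATG (the DNA spelling of the Rbfox element), AGATAA (bound by GATA factors), a loose form of the MEF2 core (CTA and TAG with any 4 bases between them) and CACGTG (E-box). No motif is contained in another, and the last 2 read the same on both strands. The Ano10 promoter is chr9:122294374-122294673, minus strand. The Cenpf promoter is chr1:189688037-189688336, minus strand. The Gpr22 promoter is chr12:31713834-31714133, minus strand.
Ano10: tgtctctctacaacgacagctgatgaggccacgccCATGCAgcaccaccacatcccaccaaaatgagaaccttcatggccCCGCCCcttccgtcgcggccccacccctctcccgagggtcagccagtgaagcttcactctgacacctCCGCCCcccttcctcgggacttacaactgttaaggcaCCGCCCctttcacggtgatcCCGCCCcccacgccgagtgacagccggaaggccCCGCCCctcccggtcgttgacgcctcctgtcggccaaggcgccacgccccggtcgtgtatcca
Cenpf: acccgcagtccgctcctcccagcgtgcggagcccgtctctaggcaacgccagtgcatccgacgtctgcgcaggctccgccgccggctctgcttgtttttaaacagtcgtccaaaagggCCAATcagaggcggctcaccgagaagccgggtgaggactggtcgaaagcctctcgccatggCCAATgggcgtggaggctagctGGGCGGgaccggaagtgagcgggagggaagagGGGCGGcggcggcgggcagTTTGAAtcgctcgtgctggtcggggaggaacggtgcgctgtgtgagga
Gpr22: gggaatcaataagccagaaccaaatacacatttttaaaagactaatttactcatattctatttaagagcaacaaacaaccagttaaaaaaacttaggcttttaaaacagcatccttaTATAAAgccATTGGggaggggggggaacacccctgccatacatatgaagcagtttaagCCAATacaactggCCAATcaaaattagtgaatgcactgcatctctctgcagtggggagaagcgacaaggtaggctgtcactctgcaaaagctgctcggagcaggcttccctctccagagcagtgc

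The Ano10 promoter held 5 GC boxes, all as the reverse complement, and 1 TGCATG, as CATGCA at position -215 from the start. The Cenpf promoter held 2 CCAAT at -132 and -71, 2 GC boxes at -49 and -17, and 1 TTTGAA at position 3. The Gpr22 promoter held 1 TATAAA at -133 and 3 CCAAT at -124, -75 and -62, and no GC box. It was also the one poor in GC, at 43.0% with 2 CpG, against 65.7% with 24 CpG for Ano10, 66.3% with 31 for Cenpf, 75.0% with 39 for Syde2 and 64.0% with 22 for Ankrd26. The median over all 32851 promoters in the RefSeq table was 52.7% GC with 7 CpG. Among the other promoters, Syde2 held 2 GC boxes and Ankrd26 none of the 8 motifs. The share of all promoters with a match was 13.6% for TATAAA, 37.4% for CCAAT, 35.7% for GGGCGG, 17.9% for TTTGAA and 11.01% for TGCATG. It was 11.2% for AGATAA, 3.69% for the loose MEF2 core and 7.15% for CACGTG, which had no match in any of the 5. These are matches of letters within these windows and were not tested against the expression data.

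The 3′-end libraries held 5266624 to 9563471 reads in WT and 4007538 to 5423441 in KO. Rbfox2 itself stood at 322.8, 296.7 and 214.4 RP10M, that is reads per 10000000, in WT libraries 1, 2 and 3 and at 117.3, 81.7 and 66.4 in KO libraries 1, 2 and 3, lower in every KO library. Since the deleted part of the gene is not named, it is not known whether these 3′ ends lie in it. In RASL-seq its most counted event stood at 202 to 343 CPM (counts scaled to the library total) in WT and 18.02 to 93.2 in KO, over all ages. Its event 8783 stood at 66.9 to 119 CPM in WT and 7.01 to 41.9 in KO. Its event 8797 had few counts and overlapped, at 2.87 to 6.69 CPM in WT and 1.50 to 7.03 in KO. The summed level of 12 cardiac myocyte markers was 1085092.4 to 1301323.9 RP10M in WT and 1160219.2 to 1243671.4 in KO, so both genotypes carried the markers of the labelled cell type, and Myl2 and Ryr2 among them fell in KO. The 8 fibroblast markers summed to 644.2 to 4512.9 RP10M in WT and 3503.4 to 5629.7 in KO, and the 8 macrophage markers to 305.2 to 974.3 and 970.7 to 1427.1. The 8 endothelial markers overlapped, at 2600.2 to 6460.0 RP10M in WT and at 2902.0 to 4024.0 in KO. The summed level of the 7 smooth muscle and pericyte markers was lower in every KO library, at 1870.1 to 3056.8 against 3294.9 to 4203.3 RP10M. Most of the WT sum was Acta2, the one of them that fell by the test, from a mean of 2651 RP10M to 741. The others did not move together. By mean, Myh11 (705 RP10M in WT and 1052 in KO), Cnn1 (10.5 and 68.4) and Cspg4 (193 and 249) were higher in KO, and Rgs5, Pdgfrb and Tagln lower. In these bulk samples, fewer cells of a type and less RNA per cell cannot be told apart, and the part of other cell types in the levels below was not tested except where a value is given.

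Ces1d, the lipid-hydrolysing carboxylesterase, showed the largest reduction of the 7. It stood at 462.5, 213.5 and 380.6 RP10M in WT libraries 1, 2 and 3 and at 59.9, 51.6 and 31.3 in KO libraries 1, 2 and 3. The groups did not overlap, and the lowest WT library was 3.56 times the highest KO library. The mean was 352 ± 127 RP10M in WT and 47.6 ± 14.7 in KO (SD, n = 3 each), so that KO held 13.5% of the WT mean, a log2 change of -2.84 in RP10M + 1. The KO values rested on 24, 24 and 17 reads, and the WT values on 341, 118 and 364. WT library 2 was the low one of its group, at 60.6% of the WT mean. Ces1d is abundant in liver and fat, and markers of both were looked up. The 5 hepatocyte markers summed to at most 15.6 RP10M in any library, below the level of Ces1d in every library. The 9 adipocyte markers summed to 2105.1, 2059.0 and 3477.8 RP10M in WT and to 1345.0, 1618.6 and 1543.3 in KO, lower in every KO library. Most of that sum was Fabp4 and Lipe, neither of which passed the test. Lep and Cidec were at 0 in all libraries. Adipoq stood at 16.3, 7.2 and 0 RP10M in WT and at 0, 8.6 and 0 in KO, and Car3 at 0, 7.2 and 9.4 and at 0, 2.1 and 0. Plin1 and Cfd were seen in 1 WT library each, at 12.5 and 5.4 RP10M, and in no KO library, and Retn in KO library 3 alone, at 3.7. Apart from Retn, these low markers were seen more in WT than in KO. Their values are low in every library, and the WT libraries mostly held more reads, so nothing is read from that order. The part of fat cells in the Ces1d values was not tested.

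Ano10, the anoctamin of the endoplasmic reticulum, had the most even KO libraries of the 7 (CV, the SD as a share of the mean, 15.2%). It stood at 2612.3, 3039.8 and 3621.1 RP10M in WT and at 771.0, 573.9 and 639.8 in KO. The KO libraries lay close together, and the lowest WT library was 3.39 times the highest KO library. The means were 3091 ± 506 and 662 ± 100.3 RP10M, with KO at 21.4% of WT (log2 change -2.22). Its KO values rested on 267 to 347 reads.

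Gpr22, the orphan receptor, stood at 3013.8, 3693.0 and 1905.2 RP10M in WT and at 865.9, 1186.6 and 520.0 in KO. It had the smallest reduction and the narrowest gap between the groups, with the lowest WT library 1.61 times the highest KO library. The means were 2871 ± 903 and 858 ± 333 RP10M, with KO at 29.9% of WT (log2 change -1.77). WT library 3 and KO library 3 were the low libraries of their groups, and KO library 2 was the high one. In RefSeq the Gpr22 gene overlaps Cog5, a subunit of a Golgi tethering complex, and no source used here says whether reads were counted by strand, so reads of the pair could be mixed. Cog5 stood at 62.4, 41.6 and 24 RP10M in WT and at 34.9, 21.5 and 77.4 in KO, well below Gpr22 in every library.

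Syde2 stood at 830.1, 662.2 and 608.6 RP10M in WT and at 184.7, 139.7 and 108.8 in KO. The groups were far apart, with the lowest WT library 3.29 times the highest KO library. The means were 700 ± 116 and 144 ± 38.2 RP10M, with KO at 20.6% of WT (log2 change -2.29).

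Ankrd26, of the centriolar distal appendages, stood at 287.5, 217.1 and 225.9 RP10M in WT and at 79.8, 47.3 and 27.7 in KO. The WT libraries were the most even of the 7 genes, with a CV of 15.8%, and the KO libraries the least even, with a CV of 51.0%. The means were 244 ± 38.4 and 51.6 ± 26.3 RP10M, with KO at 21.2% of WT (log2 change -2.33). KO library 3 rested on 15 reads, the fewest behind any value of the 7 genes.

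Cenpf, of kinetochores and microtubules, stood at 370.3, 231.6 and 466.4 RP10M in WT and at 129.8, 45.1 and 99.6 in KO. The groups did not overlap, but both were uneven, and library 2 was the low one in each. The lowest WT library was 1.78 times the highest KO library. The means were 356 ± 118 and 91.5 ± 42.9 RP10M, with KO at 25.7% of WT (log2 change -2.02). WT library 3, in which Cenpf was highest, was also the highest WT library in 33 of the 38 kinetochore and mitosis genes tested, against 4911 of all 10858 genes. Without WT library 3 the log2 change of Cenpf was -1.80, and the part of dividing cells in its values was not tested.

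G630090E17Rik, the Mfsd4b3 pseudogene, stood at 231.9, 468.6 and 252.0 RP10M in WT and at 79.8, 55.9 and 73.8 in KO. Its WT libraries were the least even of the 7 genes (CV 41.3%), with WT library 2 the high one, while its KO libraries lay close together (CV 17.8%). The means were 318 ± 131 and 69.8 ± 12.4 RP10M, with KO at 21.99% of WT (log2 change -2.11). Reads of near-identical copies could be split among the Mfsd4b genes, and Mfsd4b5, which overlaps this gene in RefSeq, was not analysed here. Of the other family members, AI317395 (Mfsd4b1) stood at 55.6, 18.1 and 42.9 RP10M in WT and at 97.3, 38.7 and 18.4 in KO, overlapping groups. 2010001E11Rik (Mfsd4b2) reached at most 2.7 RP10M, and AA474331 (Mfsd4b4) was at 0 in all libraries. These family members were looked up after the values were seen.

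**Figure D1:**
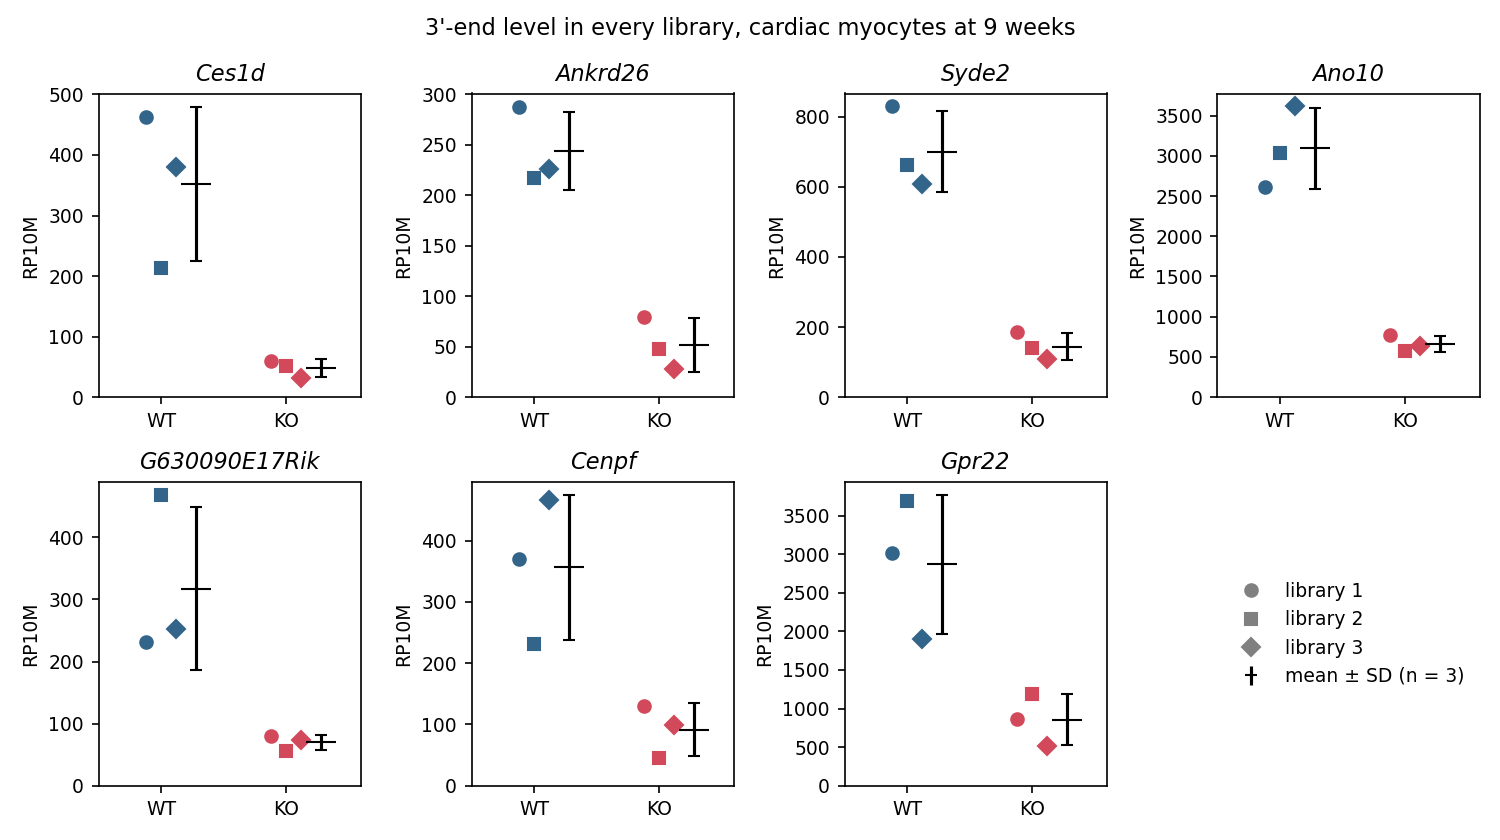
The 3′-end level of each of the 7 genes is plotted on its own linear axis in RP10M for 3 WT libraries (blue) and 3 KO libraries (red), with the mean and SD beside them. Every KO point lies below every WT point in each panel, and the gap is widest relative to the levels in Ces1d and narrowest in Gpr22.

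The size of the reduction differed between KO libraries. As a share of each gene's WT mean, KO library 1 held a median of 26.4% (17.01% to 36.5% over the 7 genes), KO library 2 a median of 18.6% (12.7% to 41.3%) and KO library 3 a median of 18.1% (8.89% to 27.97%). KO library 1 was the highest KO library in 6 of the 7, with Gpr22 the exception, against 4224 of all 10858 genes. It was also the KO library with the most Rbfox2 signal and the fewest reads, and a link to either was not tested. The lowest KO library was library 3 in 4 genes and library 2 in 3. In WT no library led: library 1 was highest in 3 genes and libraries 2 and 3 in 2 each. With 3 libraries a group, these orders are a description.

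**Figure D2:**
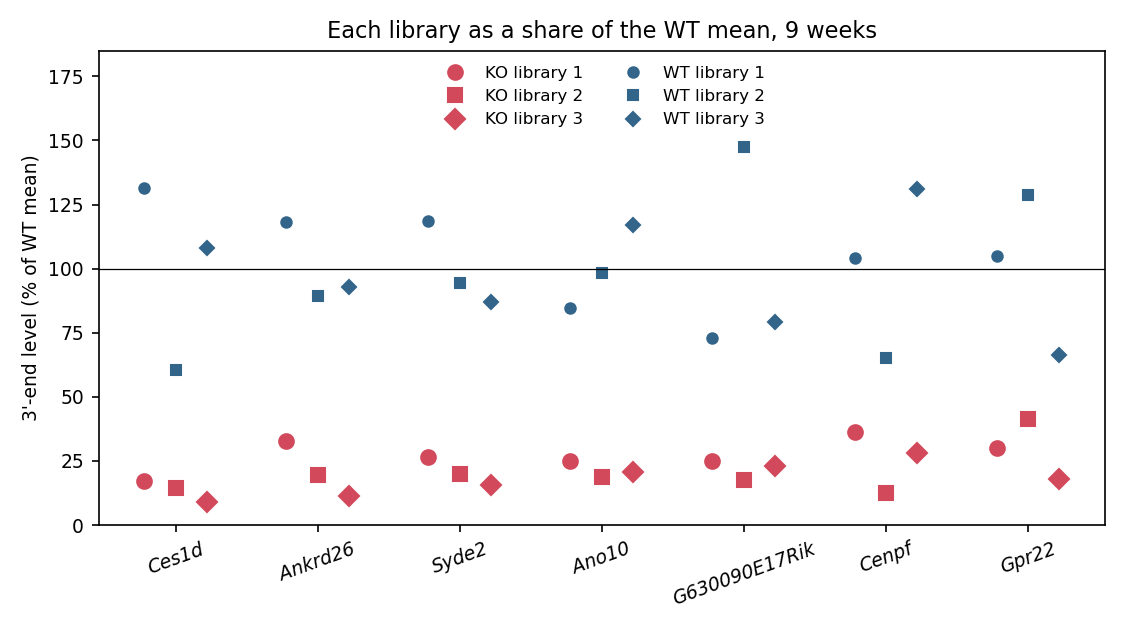
Each library is shown as a percentage of the gene's WT mean on a linear axis, with WT libraries in blue, KO libraries in red and the line at the WT mean. KO libraries lie between 8.89% and 41.3%, and the WT libraries spread from 60.6% to 147.6%.

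The libraries of a genotype differed among themselves. The CV over WT libraries ran from 15.8% to 41.3% with a median of 31.4%, against a median of 21.3% over all genes whose mean reached 100 RP10M. In KO it ran from 15.2% to 51.0% with a median of 30.9%, against a median of 14.3% over the same set of all genes. Of the 7 genes, 4 had a KO mean under 100 RP10M and so few reads. Their KO CVs were 30.9% (Ces1d), 51.0% (Ankrd26), 17.8% (G630090E17Rik) and 46.9% (Cenpf). Gpr22, with a KO CV of 38.9%, was not one of these. The part of read depth in the spread was not tested. The highest WT library was 1.32 times the lowest for Ankrd26 and 2.17 times the lowest for Ces1d, the ends of the range.

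The 7 genes were then placed among all genes measured. Of the 10858 genes whose mean reached 10 RP10M, 174 (1.6%) passed the limma test at an adjusted p under 0.05, 131 higher in KO (1.21%) and 43 lower (0.396%), and 1004 (9.25%) had every KO library below every WT library. All 7 belong to the last 2 classes because they were chosen on this contrast, and nothing is read from that count. The number lower in KO depended on single libraries: leaving out WT library 2 gave 7, WT library 3 gave 78, KO library 1 gave 20, and KO library 2 or 3 gave 3 each. The number in either direction was then 42, 420, 58, 18 and 18. Among the genes that were lower in KO in every library, passed the test and had a mean of 100 RP10M or more, the 7 took places 1 to 6 and 9 by log2 change. Acta2 (-1.94) and Cmya5 (-1.91), a muscle costamere protein, lay between Cenpf and Gpr22 and are not among the 7. Next came Rbfox1 (-1.68), the muscle and brain relative of Rbfox2, then Rbfox2 itself (-1.66) and Kitl (-1.55), the ligand of the receptor Kit. With no requirement on the test, on overlap between the groups or on a mean of 100 RP10M, the 7 genes ranked 20 to 130 of 10858 by size of fall. The largest fall of all was that of Zcchc10 (log2 change -3.94), at 23.2 RP10M in WT and at 0.833 in KO, which did not pass.

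**Figure D3:**
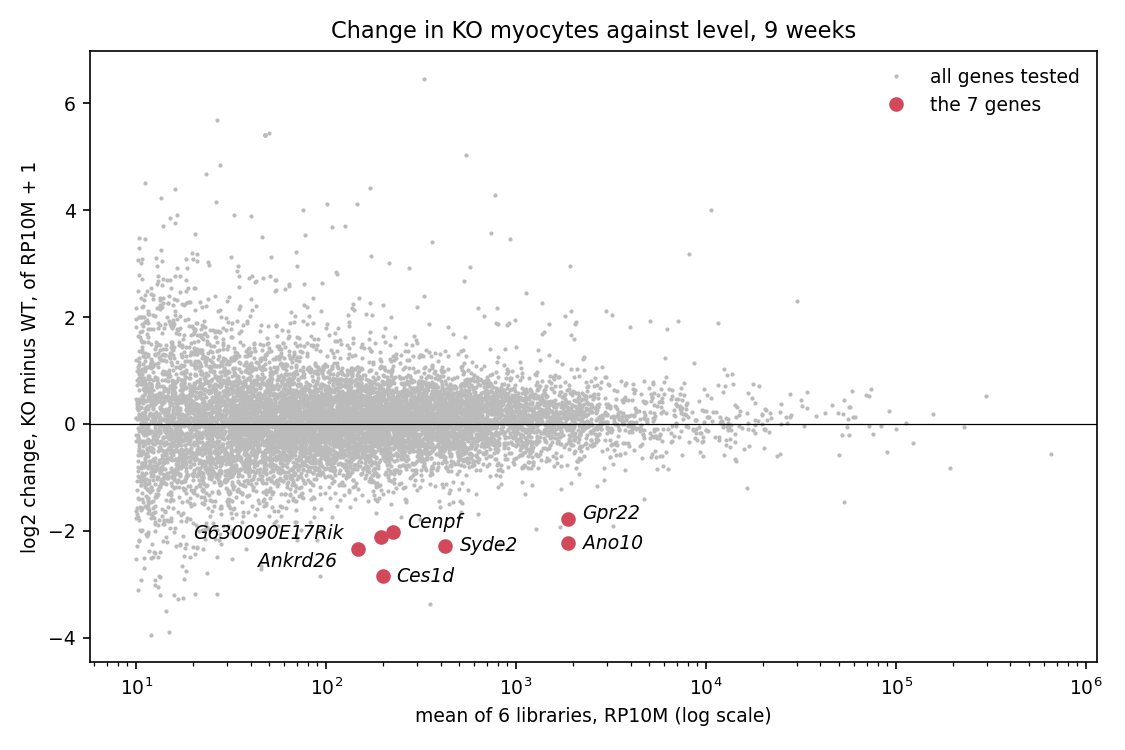
The log2 change of RP10M + 1, KO minus WT, is plotted against the mean of 6 libraries in RP10M on a log axis for the 10858 genes tested (grey), with the 7 genes in red. The 7 lie between -2.84 and -1.77 near the lower edge of genes of like level, while larger falls occur mostly at low levels.

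By the log2 profile over the 6 libraries, the genes most like the mean of the 7 were Dnajc3 (Pearson r = 0.995), Csda (0.991), Lrtm1 (0.990), Erc1 (0.988) and Cpsf2 (0.986), out of 5837 genes whose mean reached 100 RP10M. In all, 42 genes reached an r of 0.95, and each r rests on 6 libraries that share the difference between genotypes. Dnajc3, a chaperone of the endoplasmic reticulum, stood at 680.9, 591.7 and 627.4 RP10M in WT and at 351.8, 285.9 and 258.1 in KO. Csda, a cold shock domain protein, stood at 17488.6, 17269.0 and 17006.4 RP10M in WT and at 12149.6, 10081.6 and 10659.3 in KO. Both fell less than any of the 7, with log2 changes of -1.09 and -0.66. Erc1, an active zone scaffold protein, came nearest in size among the 5, at -1.48, from 760 ± 41.6 RP10M in WT to 278 ± 64.4 in KO.

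The genes beside the 7 in the genome were looked up next. For each of the 7, the overlapping gene and the nearest 2 measured protein-coding genes on each side were taken in RefSeq order, a rule set after the values were seen. Of these 29 neighbours, 1 rose, 0 fell and 28 did not pass the limma test, with log2 changes from -1.98 to 1.52 and a median of -0.03, against 0.07 over all genes. With 1.21% of all genes higher and 0.396% lower by the test, counts this small are near the background and nothing is read from them. Beside Ano10, Snrk stood at 486 ± 89.3 RP10M in WT and at 477 ± 19.9 in KO (log2 change -0.01) and Abhd5, the co-activator of adipose triglyceride lipase, at 383 ± 64.1 and 415 ± 28.9 (0.12). Beside Ankrd26, the calcium channel gene Cacna1c stood at 229 ± 82.1 and 207 ± 29.2 RP10M (-0.09). Beside Cenpf, the lysine methyltransferase gene Smyd2 stood at 2074 ± 289 and 2677 ± 222 RP10M (0.37, adjusted p = 0.273). The largest fall was that of Dus4l near Gpr22, at 10.9, 25.3 and 11.5 RP10M in WT and at 0, 4.3 and 11.1 in KO, with overlapping groups (log2 change -1.98, adjusted p = 0.429). The neighbour that rose was Gnao1, a G protein subunit gene beside Ces1d, at 139.7, 83.2 and 105.6 RP10M in WT and at 272.0, 283.7 and 263.7 in KO (log2 change 1.34, SE 0.26, adjusted p = 0.0348, limma). It no longer passed without WT library 2 (adjusted p = 0.0982), KO library 1 (0.117), KO library 2 (0.179) or KO library 3 (0.194).

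**Figure D4:**
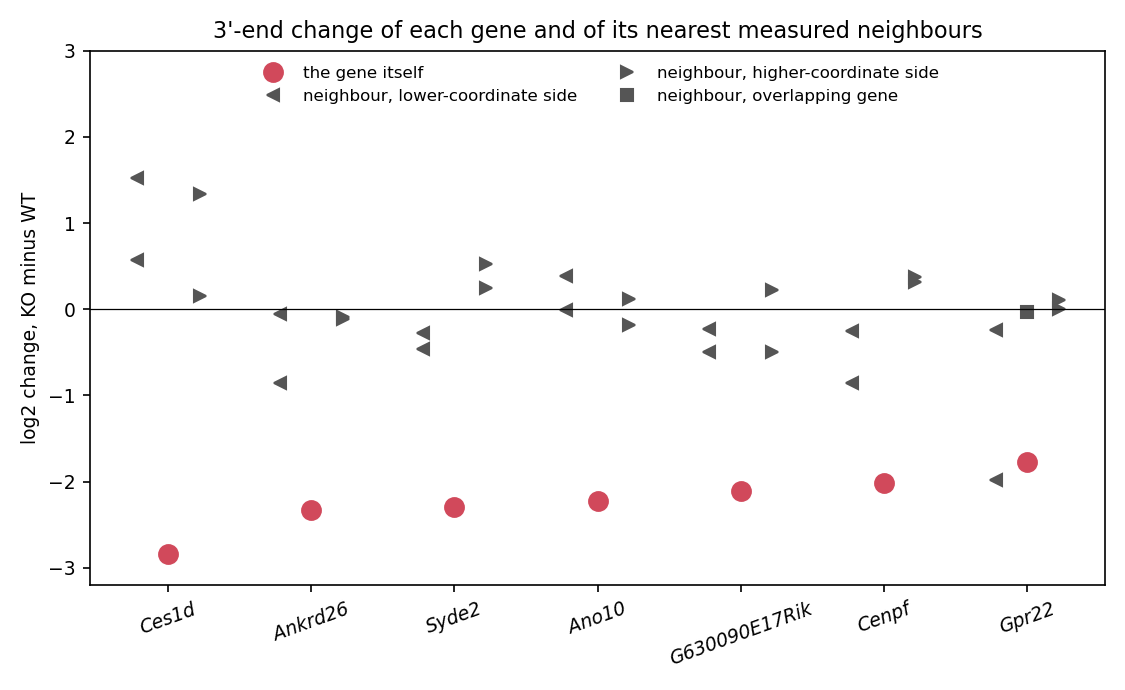
The log2 change, KO minus WT, is plotted for each of the 7 genes (red) and its nearest measured neighbours (grey), with triangles for the lower-coordinate and higher-coordinate sides and a square for an overlapping gene. Most neighbours lie near 0, and Dus4l, at -1.98, is the one that lies below the smallest fall of the 7.

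Genes related to the 7 by family or process held none that passed the limma test. Over 5 lists with measured members, 110 genes were tested and 0 passed in either direction, against 174 of 10858 genes. By limma 20 had an unadjusted p under 0.05, against 1861 of 10858. With 1.6% of all genes passing, a count of 0 is near the background. Nothing is read from it, here or in the single lists. Count tests on the recovered reads gave 0 with edgeR, where 18 had an unadjusted p under 0.05, and 4 with DESeq2, all lower in KO (Adrb1, Ccdc41, Cetn2 and Pcm1). Over all 10858 genes edgeR passed 126 (1.16%), 39 of them lower (0.359%), and DESeq2 passed 456 (4.2%), 199 of them lower (1.83%). The median log2 change of the 110 was 0.01, with 54 below 0, and that of all genes 0.07, with 4865 of 10858 below 0. Without WT library 1 there were 2 that passed by limma (Adora1 and Dgat1) and without WT library 3 there was 1 (Mki67). From each list the 3 genes with the lowest adjusted p are named.

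The carboxylesterase family held 17 relatives of Ces1d, of which 8 were at 0 in all libraries and none reached a mean of 10 RP10M. Ces1e, chosen for naming after its values were seen, had the highest single WT value of them, at 20.3, 10.9 and 1.0 RP10M in WT and at 5.0, 8.6 and 3.7 in KO, overlapping groups. Of 17 other genes in the triglyceride hydrolysis list, 0 passed, and their median log2 change was 0.15. The list also held genes that make triglyceride, among them Dgat1 and Dgat2, and lipid droplet proteins such as Cidea and Plin2. Of its lipase genes, Lpl (-0.47), Lipa (-0.35), Lipe (-0.30), Pnpla8 (-0.30) and Mgll (-0.08) were below 0. Pnpla2 (0.31) and Pnpla3 (1.53) were above 0, so the median gives no direction for hydrolysis alone. Cidea, a lipid droplet protein, stood at 281 ± 58.2 RP10M in WT and at 514 ± 81.0 in KO (log2 change 0.88, adjusted p = 0.0973). Dgat1, which makes triglyceride, stood at 411 ± 111 and 697 ± 47.7 RP10M (0.79, adjusted p = 0.110), and lipoprotein lipase, Lpl, at 18450 ± 2018 and 13310 ± 651 (-0.47, adjusted p = 0.114).

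Of the 9 other anoctamins, 3 were at 0 in all libraries and 3 were tested, of which 0 passed. Ano6, a phospholipid scramblase, stood at 139 ± 24.9 RP10M in WT and at 93.3 ± 33.7 in KO (log2 change -0.61, adjusted p = 0.385). Ano8 stood at 75.4 ± 19.9 and 106 ± 19.1 RP10M (0.50, adjusted p = 0.476). Ano1, a calcium-activated chloride channel, stood at 62.6 ± 8.95 and 42.7 ± 10.7 RP10M (-0.56, adjusted p = 0.494).

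Of 26 genes of cardiac G protein-coupled receptors tested, 0 passed by limma and 1, Adrb1, by DESeq2, with a median log2 change of 0.03. Adrb1, the beta-1 adrenergic receptor, stood at 222.4, 135.7 and 253.0 RP10M in WT and at 129.8, 43.0 and 71.9 in KO. Its groups did not overlap, and the difference missed the threshold (log2 change -1.40, adjusted p = 0.122). S1pr1 stood at 224 ± 27.7 and 113 ± 44.2 RP10M (-1.06, adjusted p = 0.139) and P2ry1 at 107 ± 37.5 and 48.1 ± 10.1 (-1.10, adjusted p = 0.169).

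Of 38 kinetochore and mitosis genes tested, 0 passed, with a median log2 change of 0.06 and 17 below 0. WT library 3 stood apart in genes of dividing cells, named here after their values were seen. Top2a, a topoisomerase of replicating cells, stood at 1.4, 7.2 and 414.1 RP10M in WT and at 12.5, 62.3 and 86.7 in KO. Mki67, the proliferation marker Ki-67, stood at 65.1, 16.3 and 748.7 RP10M in WT and at 189.6, 109.6 and 208.4 in KO, and Prc1, of the spindle midzone, at 4.1, 0 and 200.8 and at 0, 32.2 and 27.7. In all 3 genes the other WT libraries were low, and the KO libraries lay below WT library 3. Cenpb stood at 3410 ± 164 RP10M in WT and at 4697 ± 484 in KO (log2 change 0.46, adjusted p = 0.136), Cenpc1 at 34.1 ± 11.5 and 7.90 ± 7.67 (-2.30, adjusted p = 0.165) and Zwint at 6.43 ± 8.22 and 20.4 ± 3.42 (2.32, adjusted p = 0.321). Of 26 genes of distal appendages and centrioles, 0 passed by limma or edgeR. Their median was -0.11 with 17 below 0, against 0.07 and 4865 of 10858 over all genes. DESeq2 passed 3 of the 26, all lower in KO (Ccdc41, Cetn2 and Pcm1), against 1.83% lower over all genes. By limma 7 had an unadjusted p under 0.05, against 1861 of 10858 genes. Ccdc41, now Cep83, a distal appendage protein like Ankrd26, stood at 226.5, 226.2 and 290.7 RP10M in WT and at 117.3, 124.7 and 132.8 in KO. Its groups did not overlap (log2 change -0.97, adjusted p = 0.0788). Pcm1, the scaffold of centriolar satellites, stood at 720 ± 174 and 409 ± 79.3 RP10M (-0.80, adjusted p = 0.115) and Cetn2, a centrin, at 372 ± 193 and 151 ± 20.9 (-1.18, adjusted p = 0.119).

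No splice event of the 7 genes was counted. The RASL-seq table holds 3885 events, and 0 of them carry the name of any of the 7 or of a RefSeq synonym, so isoforms and probe totals of these genes at 5, 9 and 18 weeks could not be compared. Their relatives in the lists had 40 events in 28 genes, of which 14 events of 13 genes had enough counts for a test of the isoform ratio. The test was passed by 1 of 14 at 5 weeks, 2 at 9 weeks and 3 at 18 weeks, against 10.1%, 16.9% and 19.4% of all 2032 events tested at these ages. The count at 5 weeks was 2 without KO library 3 of that age. At 9 weeks, leaving out the third WT library, or the second or the third KO library, left 1 event, and at 18 weeks the same held for the second and the third WT library and for the first and the second KO library. None of the 2 events in triglyceride hydrolysis genes passed.

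The event that passed at all ages was that of Odf2 (event 4791), a protein of centriolar appendages. The share of its counts from the long isoform was 89.0% ± 4.56, 81.8% ± 10.2 and 79.8% ± 2.17 in WT and 59.9% ± 2.70, 52.9% ± 6.16 and 47.5% ± 4.37 in KO at 5, 9 and 18 weeks (SD, n = 3 each). The edgeR adjusted p was 0.000475 at 5 weeks, 0.00110 at 9 weeks and 0.000679 at 18 weeks. In Ndel1 (event 4699), a partner of the dynein motor at kinetochores and centrosomes, the long share at 9 weeks was 36.6% ± 4.13 in WT and 64.1% ± 6.02 in KO (adjusted p = 0.0164). In Pcm1 (event 4924) it was 12.3% ± 1.57 in WT and 21.03% ± 2.54 in KO at 18 weeks (adjusted p = 0.0486). A deeper Pcm1 event (7681), with a mean of 1498 counts against 292, passed at no age (edgeR adjusted p = 0.324, 0.920 and 0.0995). The long share of Nin (event 4066), a centriolar appendage protein, was 2.40% ± 1.41 in WT and 0% in KO at 18 weeks (adjusted p = 0.0194). With a mean of 367 counts over both isoforms, that share rests on few counts. Neither event 4924 nor event 4066 passed at 5 or 9 weeks. Whether any of the 7 genes carries a like switch was not measured.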

How the data were processed

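The 7 genes, the lists of related genes and the tests were chosen with earlier results of these data known. Per the file headers, the 3′-end signal that the authors deposited is in reads per 10000000 for each gene, with 1 decimal. Each column was divided by what 1 read is worth to recover reads. In every library 100% of the low values came out whole within 0.1. The values of WT library 2 sum to 9529443.7 and not to 10000000, for a reason not given in the sources used here. Per the file headers, the deposited RASL-seq values are raw counts for either isoform, with 1998027 to 12876511 counts per library. Per the submitters' processing notes, mm9 was a build and Bowtie 0.12.7 and cutadapt 1.2.1 were tools, with no role given. No genome of that build was used, and RefSeq tables of GRCm38.p6 gave names, gene order and promoters only.

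Each genotype and age is 1 sample in the labels but 3 columns in the tables. Columns of a group differed by a chi-square per degree of freedom of 5.84 to 64.6, so they were taken as separate libraries. Nothing says that they came from separate animals, and p-values measure the spread between libraries only. In R 4.3.3, limma 3.58.1 with its trend and robust options was fitted to log2(RP10M + 1) of the 10858 genes whose mean reached 10 RP10M, with genotype as the one term. Changes of low genes are understated on this scale. The planned count test applied only if the table held raw counts. edgeR 4.0.16 and DESeq2 1.42.0 on recovered reads were alternatives. RASL-seq events whose mean reached 20 counts, and 1 count in each isoform, were tested with edgeR's quasi-likelihood test on the isoform pairs, fitting each library and isoform by group, for all ages together. P-values were adjusted by Benjamini-Hochberg over all genes or events, and passing means an adjusted p under 0.05. No molecular identifiers are described, so counts are not independent molecules.

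Genes named were the 7, Rbfox2, those at the edge of the 10 largest falls, 3 per list by lowest adjusted p and the 5 most alike in profile. Names outside this rule (neighbours, Ces1e, the Mfsd4b family, Zcchc10, Top2a, Mki67, Prc1, single markers and the events that passed) were chosen after values were seen. A planned list of related genes is not reported here. Scripts were tested on simulated data. Other settings are described at the end.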

Additional observations from a re-analysis of the deposited data

How the results depend on the processing

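The direction and the large size of the 7 falls are set by how the genes were chosen and are no sign of stability. Over 14 settings the median log2 change of the 7, -2.22, ranged from -2.34 to -2.12, and single genes from -3.16 to -2.57 (Ces1d), -2.70 to -1.96 (Ankrd26), -2.48 to -2.10 (Syde2), -2.34 to -2.10 (Ano10), -2.30 to -1.79 (G630090E17Rik), -2.33 to -1.58 (Cenpf) and -2.04 to -1.45 (Gpr22). Counts over all genes moved more, and the cause was not tested. Of 174 genes that passed, 131 were higher and 43 lower. edgeR on recovered reads gave 126, with 87 higher and 39 lower. DESeq2 gave 456, with 257 higher and 199 lower, and 4 related genes in place of 0. TMM scaling gave 159, with 105 higher and 54 lower, and moved the median of all genes from 0.07 to 0.00. Leaving out 1 library gave 18 to 420 genes, 15 to 342 higher and 3 to 78 lower, and 0 to 2 related genes. Without WT library 3 the median of all genes was 0.13.

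Same-numbered WT and KO libraries deviated together with correlations of 0.28, 0.06 and 0.19 for numbers 1, 2 and 3, and each library correlated best with its own number except KO library 2, at 0.12 with WT library 3. With the replicate number as a block, 338 genes passed, with 244 higher and 94 lower, and 1 related gene (Adrb1). For events of related genes at 9 weeks, limma on the log2 ratio with a replicate block gave 1 in place of 2. Leaving out 1 library gave 1 to 2 such events at 5 weeks, 1 to 3 at 9 weeks and 1 to 2 at 18 weeks. The planned tests of events of the 7 genes, with their alternatives, were not run because 0 such events exist. Depth limits Ankrd26 and Ces1d most, with 15 and 17 reads in KO library 3.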
